A study of Mus musculus with 10 samples.

Results

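The transcripts described here were the snoRNA host transcripts of mouse embryonic stem (ES) cells, chosen by name as entries of the expression table called Gas5, or Snhg followed by digits, with a mean of at least 1 FPKM over 4 hairpins. FPKM is a level per length, the fragments of an RNA divided by its length and by the size of the library. Of 26857 entries, 3 met the rule, namely Snhg3, Gas5 and Snhg10, and no entry with such a name lay under the minimum. The choice used no comparison between hairpins. RefSeq holds 18 genes with such names, and 5 others of them were found in the table under older names. Those 5 are given as a comparison and not as members.

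Host transcripts carry small nucleolar RNAs (snoRNAs) in their introns, and the small RNAs are released as the introns are removed. The spliced exons that remain encode no conserved protein, and many such RNAs, Gas5 among them, are known to be degraded in the cytoplasm by nonsense-mediated decay (NMD), the pathway that removes RNAs whose translation ends early. Gas5 and Snhg3 are also known members of the 5′ terminal oligopyrimidine class, whose transcripts begin with a run of C and T and whose translation follows growth signals. Their level in an RNA-seq library therefore depends on both synthesis and decay.

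The cells were V6.5 mouse ES cells, grown on gelatin with LIF. For RNA-seq they carried a lentiviral hairpin against luciferase (shLuc) or GFP (shGFP) as control, or one of 2 hairpins against the splicing regulator Rbfox2 (shFox2-1, shFox2-2). Each hairpin had 2 poly(A)-selected libraries from duplicate infections, selected with puromycin (1 µg/ml) over 3 days and then left 24 h free of it, and the deposited value of a hairpin pools them. Binding sites came from iCLIP, in which RNA is fixed to a bound protein by ultraviolet light (here 150 mJ/cm2) and recovered with it. Separate V6.5 cells, kept in hygromycin (150 µg/ml, 6 days), carried human RBFOX2 under a doxycycline-inducible promoter, with a FLAG-HA tag or untagged, in 1 library each, induced with 1 µg/ml for 24 h. The tagged protein is thus a human one expressed from a transgene, and the hairpins lower Rbfox2 without removing it.

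Rbfox2 itself, listed as Rbm9, stood at 24.7 FPKM in shLuc and 23.3 in shGFP against 8.56 in shFox2-1 and 7.21 in shFox2-2. Rbfox2 had both knockdown intervals below both control intervals, and a low-data status in shLuc and shFox2-2. Its difference on the log2(FPKM + 1) scale was -1.50, with a limma adjusted p of 0.913 over all tested entries and of 0.0471 over entries of at least 1 FPKM alone. All 10 ES cell markers looked up, Pou5f1, Sox2 and Nanog among them, were expressed, with a summed level of 1442 FPKM in shLuc, 1597 in shGFP, 1788 in shFox2-1 and 1461 in shFox2-2. Of these 10, Sall4, a pluripotency factor gene, was separated, that is, both of its knockdown intervals lay above both control intervals. Over all 12632 expressed entries 0.293% were separated in either direction. Sall4 stood at 71.0 and 72.3 FPKM in shLuc and shGFP against 91.4 and 87.7 in shFox2-1 and shFox2-2, with a low-data status in shGFP. Of 7 fibroblast markers 5 were under 1 FPKM, with a summed level of 4.48 to 5.13 FPKM and Lum listed at 0. The 6 neural markers summed to 41.9 FPKM in shLuc, 45.1 in shGFP, 50.2 in shFox2-1 and 37.5 in shFox2-2, most of it the tubulin gene Tubb3, with Dcx listed at 0. The 7 trophoblast markers summed to 43.1 FPKM in shLuc, 47.7 in shGFP, 80.1 in shFox2-1 and 46.4 in shFox2-2, with 4 of the 7 under 1 FPKM on average. Most of this sum came from 2 keratin genes. In the same order of hairpins, Krt8 stood at 19.5, 20.8, 39.0 and 23.1 FPKM, and Krt18 at 13.4, 15.1, 23.1 and 13.5.

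The start sites of the 3 transcripts are shown because a pyrimidine-rich start is what the 5′ terminal oligopyrimidine class is named for. Each sequence is the RefSeq start on GRCm38.p6 with 50 bases before and 50 after it, read along the transcript, and capitals mark the longest run of C and T that touches the 10 bases on either side of the start. Gas5 has 2 annotated starts.
Snhg3, minus strand, chr4:132353637-132353736: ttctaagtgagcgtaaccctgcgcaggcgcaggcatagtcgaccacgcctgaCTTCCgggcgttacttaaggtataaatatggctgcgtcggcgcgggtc
Gas5, upstream start, plus strand, chr1:161034551-161034650: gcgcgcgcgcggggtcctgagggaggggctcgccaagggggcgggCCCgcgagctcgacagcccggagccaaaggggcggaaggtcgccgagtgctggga
Gas5, downstream start, plus strand, chr1:161035116-161035215: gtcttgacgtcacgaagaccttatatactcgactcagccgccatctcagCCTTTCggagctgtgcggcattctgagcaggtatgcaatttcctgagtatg
Snhg10, minus strand, chr12:105032230-105032329: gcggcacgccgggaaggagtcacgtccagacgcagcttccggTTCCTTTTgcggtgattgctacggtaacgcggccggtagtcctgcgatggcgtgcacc

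Positions in these sequences are counted from 1 at the annotated start, with -1 as the base before it. The downstream Gas5 start lay inside a run of 6 pyrimidines, from -1 to 5, and a run at least as long touched the same window in 29.2% of the 32851 RefSeq promoters. The Snhg10 start was the base directly after a run of 8, from -8 to -1, a length reached by 13.7% of promoters. The Snhg3 run of 5, from 3 to 7, was matched or exceeded by 44.9%, and the run of 3 at the upstream Gas5 start by 82.9%. Only the transcribed strand was searched for these runs. The letters TATAAA, searched on both strands of the 100-base window in all promoters, were present in 4.94% of them. Among the 4 starts above they were found for Snhg3 alone, with the first base at position 23.

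Snhg3 was the most abundant of the 3 transcripts. In RefSeq the gene holds 2 snoRNA genes, Snora73a and Snora73b, which encode the U17 snoRNA of ribosomal RNA processing. Its entry spans 1701 bases of mm9, chromosome 4, 131907848 to 131909548. The interval after each value is the one deposited with it, of a level not given in the sources used here. In shLuc Snhg3 was at 36.2 FPKM (interval 28.6 to 43.9) and at 31.0 in shGFP (23.4 to 38.6). It stood at 44.1 FPKM in shFox2-1 (34.9 to 53.2) and at 26.0 in shFox2-2 (18.2 to 33.8). The highest and the lowest value were thus both from knockdown hairpins, with the controls between them. In bulk samples like these, fewer cells of a type and less RNA per cell cannot be told apart. Averaged over hairpins, knockdown stood at 104% of control.

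Gas5, which RefSeq shows with 8 snoRNA genes inside it, Snord47 among them, is named for its accumulation in growth-arrested cells. Its entry spans 3372 bases of mm9, chromosome 1, 162965297 to 162968668. In shLuc Gas5 was at 25.2 FPKM (interval 22.4 to 28.1) and at 21.3 in shGFP (18.5 to 24.1). It stood at 26.4 FPKM in shFox2-1 (23.0 to 29.9) and at 17.2 in shFox2-2 (14.3 to 20.1). The order of the hairpins was that of Snhg3, from shFox2-1 through shLuc and shGFP down to shFox2-2, an order shared by 8.19% of the 12632 expressed entries. Knockdown hairpins had a mean of 93.8% of that of the controls.

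Snhg10 was close to the minimum of the rule, with a mean of 1.26 FPKM. RefSeq shows no snoRNA gene inside it, but 1 guide RNA gene, Scarna13, which belongs to the Cajal body relatives of snoRNAs, and the microRNA gene Mir3069. The entry spans 1645 bases of mm9, chromosome 12, 106268845 to 106270489. In shLuc Snhg10 was at 0.886 FPKM (interval 0 to 1.79) and at 1.69 in shGFP (0.408 to 2.97). It stood at 1.29 FPKM in shFox2-1 (0.286 to 2.29) and at 1.16 in shFox2-2 (0.0236 to 2.30). Both knockdown values lay between the controls, and all 4 intervals overlapped.

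**Figure D1:**
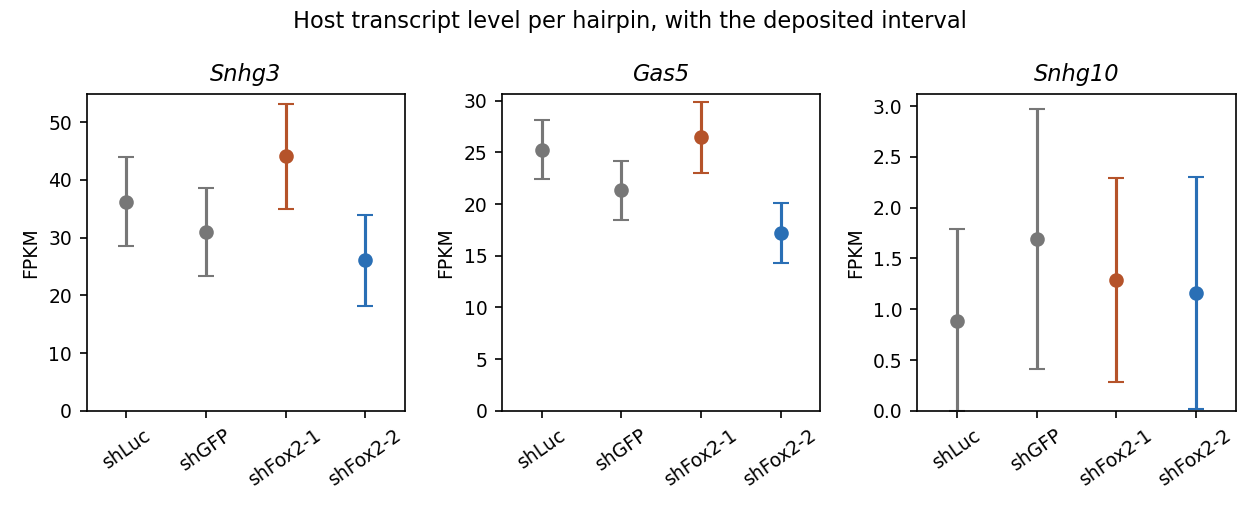
Level of each transcript in FPKM (linear axis from 0) in the 4 hairpins, controls in grey, shFox2-1 in brown and shFox2-2 in blue. Points are the deposited values and bars the deposited intervals. For Snhg3 and Gas5 the shFox2-1 interval lies above the shFox2-2 interval, and for Snhg10 all intervals overlap.

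Between these transcripts the levels kept 1 order in every hairpin, Snhg3 above Gas5 above Snhg10, on the FPKM scale, which is per length. The intervals of Snhg3 and Gas5 overlapped in shGFP and in shFox2-2 and not in shLuc or shFox2-1, and Snhg10 lay below both in all hairpins. Among expressed entries Snhg3 ranked 1844 and Gas5 2825 of 12632 by mean FPKM, and Snhg10 12109.

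None of the 3 transcripts passed the test of knockdown against control, and for each the difference was smaller than its standard error. On the log2(FPKM + 1) scale Snhg3 had a difference of 0.016 (standard error 0.25, 95% interval -0.62 to 0.65, limma adjusted p = 0.9975). Gas5 had a difference of -0.11 (standard error 0.22, interval -0.67 to 0.44, limma adjusted p = 0.994), and Snhg10 of -0.018 (standard error 0.21, interval -0.53 to 0.50, limma adjusted p = 0.9975). Unadjusted limma p-values were 0.9525, 0.626 and 0.934 in that order. The adjustment ran over 20281 tested entries, of which 0 were called (0.0%) and 908 had an unadjusted limma p under 0.05 (4.48%). An exact permutation test of 2 values against 2 cannot go below p = 0.333. Because each hairpin has 1 pooled value, these p-values reflect how hairpins vary, and the spread between cultures was not measured.

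By the deposited intervals, 0 of 3 transcripts had both knockdown intervals on 1 side of both control intervals, against 37 of 12632 expressed entries (0.293%), 22 of them higher (0.174%) and 15 lower (0.119%), a split of 28 and 9 after hairpins were centred on their median entry. The median difference of the 3 was -0.018, against -0.0089 over all expressed entries. For Gas5 the sign turned positive without shLuc (0.0020) or without shFox2-2 (0.18). For Snhg3 it turned negative without shGFP (-0.093) or without shFox2-1 (-0.35).

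The hairpins against Rbfox2 differed from each other in Snhg3 and Gas5. Snhg3 was 1.69 times as high in shFox2-1 as in shFox2-2, and Gas5 1.54 times, with intervals that did not overlap. Over all expressed entries the shFox2-1 interval lay above that of shFox2-2 in 13.0%, and in 18.7% of the 5417 with a mean of at least 10 FPKM. Against the control mean, the log2(FPKM + 1) difference of Snhg3 was 0.38 in shFox2-1 and -0.35 in shFox2-2. For Gas5 it was 0.18 and -0.41, and for Snhg10 0.023 and -0.058. In both Snhg3 and Gas5 shFox2-1 was thus above both controls and shFox2-2 below both, a pattern found in 25.6% of expressed entries. The Gas5 interval in shFox2-2 also lay below that of shLuc, as in 3.0% of expressed entries, but it overlapped that of shGFP.

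The hairpins themselves were offset, since the median expressed entry was 0.15 higher on the log2(FPKM + 1) scale in shFox2-1 than in shFox2-2. With each hairpin centred on its median entry, the difference between shFox2-1 and shFox2-2 was 0.58 for Snhg3, 0.44 for Gas5 and -0.075 for Snhg10, which was 0.081 as deposited. After centring the interval of shFox2-1 still lay above that of shFox2-2 for Gas5, as for 6.33% of expressed entries, but not for Snhg3. The centred Gas5 value in shFox2-1 no longer lay above that in shLuc, while Snhg3 remained above both controls in shFox2-1 and below both in shFox2-2, as did 14.4% of expressed entries. The summed ES cell, neural and trophoblast markers given above were also each highest in shFox2-1, and the neural ones lowest in shFox2-2. Of the 10 ES cell markers taken singly, 6 were lowest in shFox2-2, beside 45.5% of all expressed entries. The median ES cell marker was at 0.27 in shFox2-1 and -0.12 in shFox2-2 against the control mean. The neural sum was mostly Tubb3, and the trophoblast sum mostly the keratin genes Krt8 and Krt18. Only 1 of 5 tested neural markers was lowest in shFox2-2. Against the control mean, the median neural marker was at -0.086 in shFox2-1 and -0.031 in shFox2-2. The part of these cell types in the values of Snhg3 and Gas5 was not tested.

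**Figure D2:**
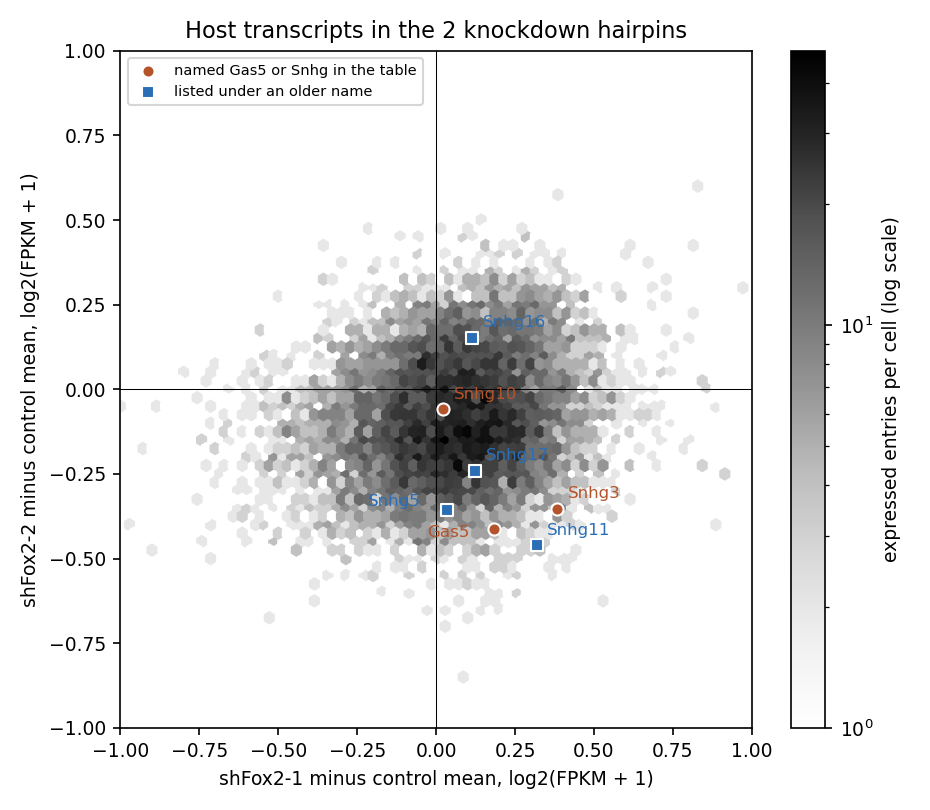
Difference from the control mean in shFox2-1 (horizontal axis) and in shFox2-2 (vertical axis), both on the log2(FPKM + 1) scale. Grey cells count expressed entries, of which 84 lie outside the axes, circles are the 3 transcripts named by the rule and squares those listed under an older name at 1 FPKM or more. Of the transcripts drawn, all but Snhg16 lie to the lower right of 0, Snhg3, Gas5 and Snhg11 farthest from 0, at 0.38 and -0.35, 0.18 and -0.41, and 0.32 and -0.46.

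The 5 other host transcripts were compared with the 3 members under their older names, matched through RefSeq. Snhg5 (2810026P18Rik), which holds 2 snoRNA genes in RefSeq, stood at 19.0 and 19.7 FPKM in shLuc and shGFP and at 19.8 and 14.9 in shFox2-1 and shFox2-2. Snhg11 (A930034L06Rik) stood at 7.77 and 6.41 FPKM against 9.05 and 4.86, again with the interval of shFox2-1 above that of shFox2-2. Snhg17 (9430008C03Rik), its neighbour on chromosome 2, stood at 5.46 and 5.18 FPKM against 5.89 and 4.35, with a low-data status in every hairpin. Snhg5, Snhg11 and Snhg17 had their lowest value in shFox2-2 and their highest in shFox2-1, as Snhg3 and Gas5 did and as 25.6% of expressed entries did. With hairpins centred, Snhg11 kept this pattern. Centred Snhg5 and Snhg17 no longer lay above shLuc in shFox2-1 (4.31 against 4.35 and 2.71 against 2.72 on the log2(FPKM + 1) scale). Snhg16 (1810032O08Rik), host of the Snord1 genes, went another way, at 7.12 and 5.81 FPKM against 7.05 and 7.26. Snhg18 (0610007N19Rik), whose entry spans 455773 bases, stood under 1 FPKM, at 0.702 and 0.521 against 0.289 and 0.456.

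Over the 7 host transcripts at 1 FPKM or more, 5 were lowest in shFox2-2, against 45.5% of all expressed entries. Their median difference from the control mean was 0.12 in shFox2-1 and -0.35 in shFox2-2, beside 0.07 and -0.09 over all expressed entries. Expressed loci of 1000 to 4000 bases at 10 FPKM or more, a class that holds Snhg3, Gas5 and Snhg5 but not the other hosts, had medians of 0.034 and -0.11 (680 entries). None of the 7 was called by limma or separated by intervals. The grouping under older names was made after the values were seen, so these counts are a description.

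The deposited interval was wider for some of these transcripts than for entries of like level. For Snhg3 the distance from value to bound was 22.9% of the value (median of 4 hairpins), against a median of 12.1% over 832 expressed entries within 20% of its mean, and 98.9% of those had a narrower interval. For Gas5 it was 13.2%, close to the 13.7% of 1047 entries of like level. For Snhg10 it was 87.9%, against 44.1% over 946 entries. Entries of like level were matched by FPKM and not by length. Expressed loci of 1000 to 4000 bases at 10 FPKM or more, Snhg3 and Gas5 among them, had a median of 14.7% (680 entries). The part of length in these widths was not tested.

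**Figure D3:**
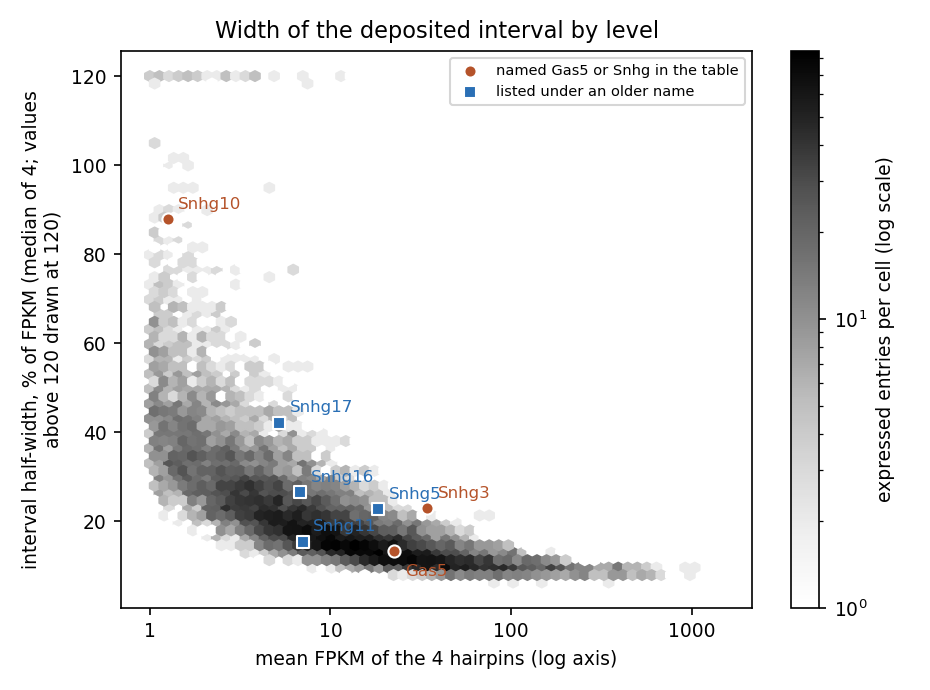
Distance from the FPKM value to its deposited bound, as a percentage of the value (median of 4 hairpins, linear axis, the 53 entries above 120% drawn at 120%), against the mean FPKM (log axis). Grey cells count expressed entries, circles are the 3 transcripts named by the rule and squares those under an older name. Snhg3 at 22.9% lies at the upper edge of its level, and Gas5 at 13.2% in the middle.

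RBFOX2 binding was read from 35639 deposited clusters of the tagged iCLIP library, each enriched over the untagged one. Coverage, fold and q-value of a cluster are the authors' own. Of the 3 loci, that of Gas5 held 1 cluster and those of Snhg3 and Snhg10 none, with a locus strand taken from RefSeq. Among all expressed loci 53.6% held a cluster, but among the 1505 of 1000 to 4000 bases, the size of these loci, 11.8% did. With a level of 10 FPKM or more added, the share was 19.6% of 680. No reading is made from 1 locus of 3 against these shares.

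The Gas5 cluster spanned 513 bases of the plus strand, chromosome 1, 162966926 to 162967438 on mm9. It began 1629 bases from the 5′ end of the locus, 48.3% of the way along, and ended at 2142 bases, 63.5% of the way, so that it covered 15.2% of the locus. Its coverage was 11767, rank 722 of 35639, against a median of 374. Its width ranked 935, against a median of 91 bases. Its fold over the untagged library, in contrast, was 1.94, where the median of the 19639 clusters with a finite fold was 3.67, and 19.8% of those lay lower. Of the 871 clusters with a coverage of at least 10000, 31 had a fold under 2 (3.56%). The Gas5 cluster was one of these 31, so by the authors' values it was large but little enriched over the untagged library. The fold sets 1 library against 1, and the untagged one had 7 more cycles of amplification. The part of those cycles in the fold was not tested. The q-value was listed as 0.0. Whether the cluster lies on exons or on a snoRNA was not analysed here, as no mm9 annotation was used.

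Clusters outside the Snhg3 and Snhg10 loci were also located. The closest to Snhg3 lay on the minus strand, on which RefSeq places Snhg3, 2061 bases beyond its 3′ end, at 131905739 to 131905786 of chromosome 4. It had a coverage of 201 and no untagged read, and the authors' gene ID assigns it to Rcc1, the exchange factor of the Ran GTPase, whose entry lies further along that strand, beyond the cluster. On the 5′ side a cluster of coverage 167, assigned to the phosphatase and actin regulator Phactr4, lay 2317 bases away. The nearest cluster to Snhg10 was 176659 bases away and was assigned to Clmn, which is not adjacent to it. The entries on either side of Snhg10 held no cluster.

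**Figure D4:**
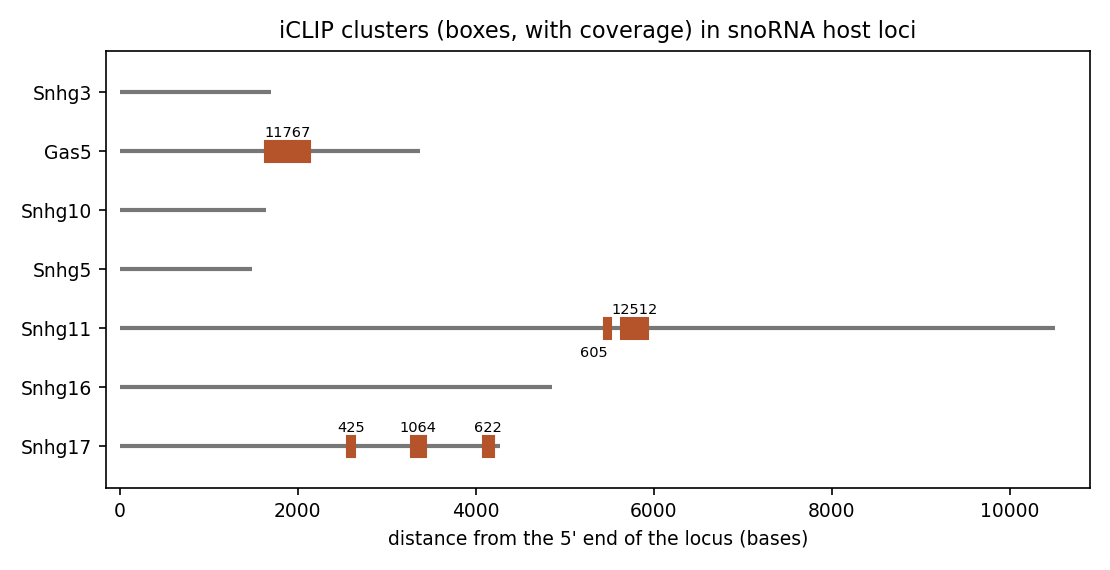
Loci of the 7 host transcripts as lines from their 5′ end (distance in bases), with iCLIP clusters as boxes and the coverage of each beside it. Gas5 holds 1 wide cluster of coverage 11767 near its middle, Snhg11 and Snhg17 hold 2 and 3, and the loci of Snhg3, Snhg10, Snhg5 and Snhg16 hold none.

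Of the hosts under older names, Snhg11 held 2 clusters on its plus strand. The larger had a coverage of 12512, rank 664, and a fold of 5.59 over 299 bases, and the smaller 605 and 7.12-fold. Snhg17 held 3 on its minus strand, with coverages of 425, 1064 and 622 and folds of 3.79, 3.17 and 1.17, the last with a q-value of 0.0048. Snhg5, which was more abundant than either in FPKM, held none, nor did Snhg16. Of these 7 loci Snhg3 had the highest mean FPKM and no cluster, and Snhg17, lower than all but Snhg10, held 3. The loci also differ in length, with 1701 bases for Snhg3, 4267 for Snhg17 and 10508 for Snhg11. No share was taken over loci of the length of Snhg17 or Snhg11, and the part of length was not tested.

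Genes next to the host loci were compared, since reads of overlapping or antisense genes cannot be told apart where the strand of counting is not given. In the table no entry overlapped the 3 loci, although RefSeq shows Zbtb37 overlapping Gas5 on GRCm38. Zbtb37, a zinc finger gene whose entry lies 906 bases from Gas5 on the other strand, stood at 1.66 FPKM in shLuc, 1.32 in shGFP, 2.09 in shFox2-1 and 1.09 in shFox2-2. It had the order of hairpins of Gas5, but all of its intervals overlapped, those of shFox2-1 (from 1.542) and shFox2-2 (up to 1.543) by the least.

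Rcc1 stood at 79.5 FPKM in shLuc, 83.1 in shGFP, 92.9 in shFox2-1 and 95.4 in shFox2-2. Both knockdown values lay above both controls, as in 14.3% of expressed entries, so that Rcc1 and Snhg3 had different profiles (Rcc1 difference 0.21, limma adjusted p = 0.978). Phactr4 stood at 10.99 FPKM in shLuc, 10.95 in shGFP, 11.7 in shFox2-1 and 11.3 in shFox2-2. Glrx5, a mitochondrial iron-sulphur gene 409 bases from Snhg10, stood at 18.2, 19.7, 15.7 and 17.8 FPKM in the same order of hairpins.

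None of the genes that package snoRNAs passed either criterion, but limma called 0 of all 20281 tested entries and only 0.293% of expressed entries were separated. A short list would thus rarely hold such an entry. No reading is made from a count of 0, here or in the lists below. All 8 core proteins of the C/D and H/ACA particles were expressed, 0 were called or separated, and their median difference was 0.04. Nhp2 (listed as Nola2), an H/ACA protein, stood at 126 and 147 FPKM in shLuc and shGFP and at 140 and 144 in shFox2-1 and shFox2-2. Nop56 (Nol5a), a C/D protein and itself a snoRNA host, stood at 132 and 131 against 134 and 143. Of 10 tested assembly factors 0 were called or separated, with a median of 0.02. Ruvbl2, an ATPase of the assembly complex, stood at 135 and 164 FPKM against 156 and 162, and its partner Ruvbl1 at 16.4 and 18.1 against 14.8 and 14.1.

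Protein-coding genes that carry snoRNAs in their introns had a median difference of -0.014 over 30 tested, 14 higher and 16 lower, with 0 called or separated. The most abundant, Eef1b2, a translation elongation factor gene, stood at 856 and 919 FPKM in shLuc and shGFP and at 1012 and 1130 FPKM in shFox2-1 and shFox2-2, with a low-data status. Hspa8, a constitutive chaperone gene, stood at 794 and 854 against 828 and 814.5 FPKM. In 12 of the 30 shFox2-2 had the lowest value, beside 45.5% of all expressed entries, and 18 held an iCLIP cluster, beside 53.6%.

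The factors of the decay pathway were examined because host transcripts are among its substrates. Of 11 NMD factors tested, 0 were called or separated, and their median difference was 0.014. Against the control mean the median was 0.16 in shFox2-1 and -0.26 in shFox2-2. Upf1, the central helicase, stood at 23.6 and 27.2 FPKM against 25.4 and 20.9. In 4 of the 11 the shFox2-1 interval lay above that of shFox2-2, beside 13.0% of all expressed entries and 18.7% of those at 10 FPKM or more. The same held for 6 of the 30 coding hosts, 6 of the 10 ES cell markers and 3 of the 7 trophoblast markers. It held for 1 of the 8 core proteins, 1 of 10 tested assembly factors, 1 of 5 tested neural markers and 0 of 6 tested fibroblast markers. Of the 2 lists described next, it held for 1 of 6 exon junction complex genes and 1 of 15 tested natural decay targets.

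The 6 exon junction complex genes, which mark spliced RNA for the pathway, had a median of 0.012, with 0 called or separated. Rnps1 stood at 55.5 and 58.1 FPKM against 49.4 and 61.1, and Casc3, listed in a joined entry, at 29.6 and 29.8 against 34.9 and 27.6. Of 15 tested protein-coding genes known as natural decay targets, 0 were called by limma and 1 was separated, Srsf7 (Sfrs7), a splicing factor gene with a decay-prone isoform, beside 0.293% of all expressed entries. Srsf7 stood at 100.2 and 97.9 FPKM against 135.8 and 121.7, and the list had a median of -0.013. Isoforms were not separated in these values, so the share of decay-prone ones was not measured.

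Entries most like the median profile of the 3 transcripts were sought by Euclidean distance among 5415 entries of at least 10 FPKM. A profile was the 4 centred hairpin values on the log2(FPKM + 1) scale, each taken around the mean of its entry. The median profile was 0.13 in shLuc, -0.099 in shGFP, 0.17 in shFox2-1 and -0.27 in shFox2-2. The nearest was Tug1, another long noncoding RNA, at a distance of 0.052, with 20.4, 18.5, 22.8 and 15.2 FPKM in shLuc, shGFP, shFox2-1 and shFox2-2. Hltf, a helicase-like transcription factor gene, followed at 0.053, then EG625534 at 0.054, the joined entry of Apc and LOC666313 at 0.058 and 2810485I05Rik at 0.077. EG625534, the joined entry and 2810485I05Rik had a low-data status in every hairpin, and the intervals of EG625534 all overlapped. Gas5 itself lay at 0.073, Snhg3 at 0.15 and Snhg10 at 0.60 from the median profile. That profile was thus mostly that of Gas5 and did not describe Snhg10. The likeness rests on 4 values per entry.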

How the data were processed

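FPKM values with lower and upper bounds and a status per gene and hairpin were deposited by the authors, with the 2 libraries of a hairpin pooled. The submitters' processing notes name TopHat2 2.0, Cufflinks 2.1.1 and mm9. Of the annotation, and of how hairpins were scaled to each other, nothing was stated, and depth was unknown. Clusters, each with coverage, fold over the untagged library and q-value, were deposited by the authors. Their aligner and caller are not given in the sources used here. Amplification of the untagged library took 7 cycles beyond the 16 given to both, per the labels' protocols.

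The log2(FPKM + 1) values of 2 knockdown and 2 control hairpins were compared in R 4.3.3 by limma 3.58.1, with its trend option. The added 1 understates changes of low entries. Of 26857 entries, 105 had a failed status, 6477 were at 0 throughout, and 20281 were tested with Benjamini-Hochberg adjustment. Expressed means a mean of at least 1 FPKM (12632). The fit was tested on simulated data. Clusters were assigned by an overlap of at least 1 base on the RefSeq strand, which was known for 65.1% of expressed entries. Locus starts were taken as 0-based and are printed from 1. Named genes were all members, separated or else most abundant list genes, and nearest profiles, with adjacent entries added by position. Results for some of these are not reported here. Members and lists were chosen with earlier results of these data known. Alternatives were the pseudocount, the FPKM minimum, centring, the trend, the status, each hairpin left out, and cluster overlap, fold, gene ID and locus width.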

Additional observations from a re-analysis of the deposited data

Results flagged for a closer look

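By their values, in Snhg3 and Gas5 the hairpins against Rbfox2 went opposite ways, with shFox2-1 above both controls and shFox2-2 below both. The Snhg3 intervals of both knockdown hairpins overlapped those of both controls, as did the Gas5 interval in shFox2-1. The difference between shFox2-1 and shFox2-2 on the log2(FPKM + 1) scale was 0.74 for Snhg3 and 0.59 for Gas5. After centring, Gas5 in shFox2-1 was no longer above shLuc, and the Snhg3 intervals in shFox2-1 and shFox2-2 overlapped. The difference was not tested, and 25.6% of expressed entries had the same pattern.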

How the results depend on the processing

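No paired analysis was possible because the columns pool the replicates of a hairpin. Without 1 hairpin at a time, the knockdown difference ranged from -0.35 to 0.38 for Snhg3, from -0.41 to 0.18 for Gas5 and from -0.27 to 0.24 for Snhg10. Its sign turned for Snhg10 without shGFP (0.24) or without shFox2-2 (0.023), and as given above for Snhg3 (-0.093 and -0.35) and Gas5 (0.0020 and 0.18), with limma adjusted p-values between 0.391 and 1.0. There the lone hairpin of an arm is assumed to vary like the others. The other alternatives kept the sign and the lack of a call of all 3. Over all entries limma called 0, but 1 (Rbfox2) with a minimum of 1 FPKM and 2 (Rbfox2 and an unnamed entry) after centring. Separated entries, 37 with all hairpins, numbered 106 to 954 with 1 left out, where fewer intervals must be cleared, and 0 members were separated under any alternative. The Gas5 cluster was lost, leaving 0, with a minimum of 2-fold over the untagged library. It was kept under the other cluster settings. Depth was not given, so limits rest on the deposited intervals, which, as a percentage of the value, were widest for Snhg10 among the 3.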

Other observations

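A pair of further entries bear on noncoding snoRNA hosts and were picked after their values were seen. The entry named Snord22, which spans 2957 bases and so more than the snoRNA, stood at 21.5 FPKM in shLuc (interval 17.98 to 24.9), 21.0 in shGFP (17.3 to 24.7), 22.4 in shFox2-1 (18.8 to 26.1) and 13.5 in shFox2-2 (10.4 to 16.6). U22, the snoRNA of that name, is known to come from an intron of Snhg1. As deposited, the shFox2-2 interval of this entry lay below those of the other 3 hairpins. The share of expressed entries with this pattern was not counted. With hairpins centred, the interval still lay below that of shFox2-1, but it was not compared with those of the controls. Zfas1, listed as 1500012F01Rik within a locus of 30070 bases, stood at 17.9, 18.5, 17.3 and 13.0 FPKM in shLuc, shGFP, shFox2-1 and shFox2-2, with overlapping intervals. Like Gas5, Zfas1 is known as a noncoding host of C/D snoRNAs. Both entries were lowest in shFox2-2, as were 45.5% of all expressed entries, and neither was called by limma (adjusted p = 0.978 each).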
